A study of Homo sapiens with 30 samples.

Results

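Libraries labelled D3 were compared with libraries without that label in unexposed A549 cells that lack RSRP1 and carry the label iR. The comparison takes 6 of the 30 libraries of the series, 3 with D3 (iR_KOA_D3_NE) and 3 without it (iR_KOA_NE), chosen by their column labels. A549 is an established human line grown from a lung adenocarcinoma and widely used for lung epithelium. All 6 libraries share the RSRP1 knockout and the label iR, and none had the magnetic field exposure that the series studies. The 4 other groups drawn on here are the knockout with D3 and exposure, the knockout with exposure and no D3, the unexposed wild type with D3 and the unexposed wild type without it, all labelled iR, with 3 libraries each. The exposure is labelled 2 H. The labels do not explain D3 or iR, which are kept as names, nor how the knockout was made or whether it is 1 clone. They also do not say whether the 3 libraries of a group are separate cultures. A p-value here measures only the spread of libraries within groups, pooled over all 10 groups of the series, and that spread may be technical.

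RSRP1 encodes an arginine- and serine-rich nuclear protein. Proliferating cells pass through DNA synthesis and mitosis with coordinated waves of transcription: E2F factors drive the genes of the start of DNA synthesis, and the complex of MYBL2 and FOXM1 drives the mitotic genes through a promoter element called CHR. Lung epithelial cells can also make fibrinogen, complement and other acute-phase proteins, which are mainly products of the liver. CA9, a carbonic anhydrase at the cell surface, is a textbook target of the hypoxia-inducible factor HIF1.

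The knockout label was checked first with RSRP1 (chromosome 1, 25,242,249 to 25,338,254, GRCh38). It had 5.84, 6.27 and 6.33 FPKM with D3, against 7.63, 7.95 and 7.45 FPKM without it. The wild-type libraries had 37.4, 41.7 and 37.4 FPKM with D3, against 48.5, 48.6 and 49.8 FPKM without it, so every knockout library lay far below every wild-type library. Within the unexposed knockout the remaining signal fell slightly with D3 (log2 difference -0.28, SE 0.06, adjusted p = 0.00026). FPKM is a fragment count divided by transcript length and by the library's total. Every log2 difference here is D3 minus no D3 on log2(FPKM + 1), fitted with limma over all 30 libraries and adjusted by Benjamini-Hochberg over 12,086 genes with a threshold of 0.05. Because of the pseudocount of 1, these log2 differences understate the change of genes with few fragments. The 6 libraries held 35,990,803 to 37,018,097 fragments by the totals the values imply. Across genes, libraries of 1 group correlated at 0.9961 to 0.998 and libraries of the 2 groups at 0.979 to 0.9829.

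D3 went with a broad change. Of 12,086 genes tested, 6485 (53.7%) passed the threshold, 2315 (19.2%) higher and 4170 (34.5%) lower with D3. Counts of list members in this comparison are to be read beside these shares. A log2 difference of at least 1 was reached by 58 genes that rose (0.48%) and 210 that fell (1.74%). Over all genes the median log2 difference was -0.06, with quartiles of -0.23 and 0.10. The balance of directions depends on the scaling: with median-of-ratios scaling 3419 genes were higher and 2930 lower, and with quantile normalization 3272 were higher and 3039 lower, while FPKM as deposited gives 35.7% of calls as higher. Those scalings moved the median of all genes to 0.02 and 0.01. The 13 mitochondrially encoded genes held 28.9, 28.5 and 30.8% of all FPKM in the D3 libraries, against 24.9, 24.6 and 24.3% in the libraries without D3. The difference is larger than the spread between libraries, and the exact two-sided permutation test gave p = 0.1, the smallest value that 3 against 3 libraries allow. Its part in the smaller differences was not tested.

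**Figure D1:**
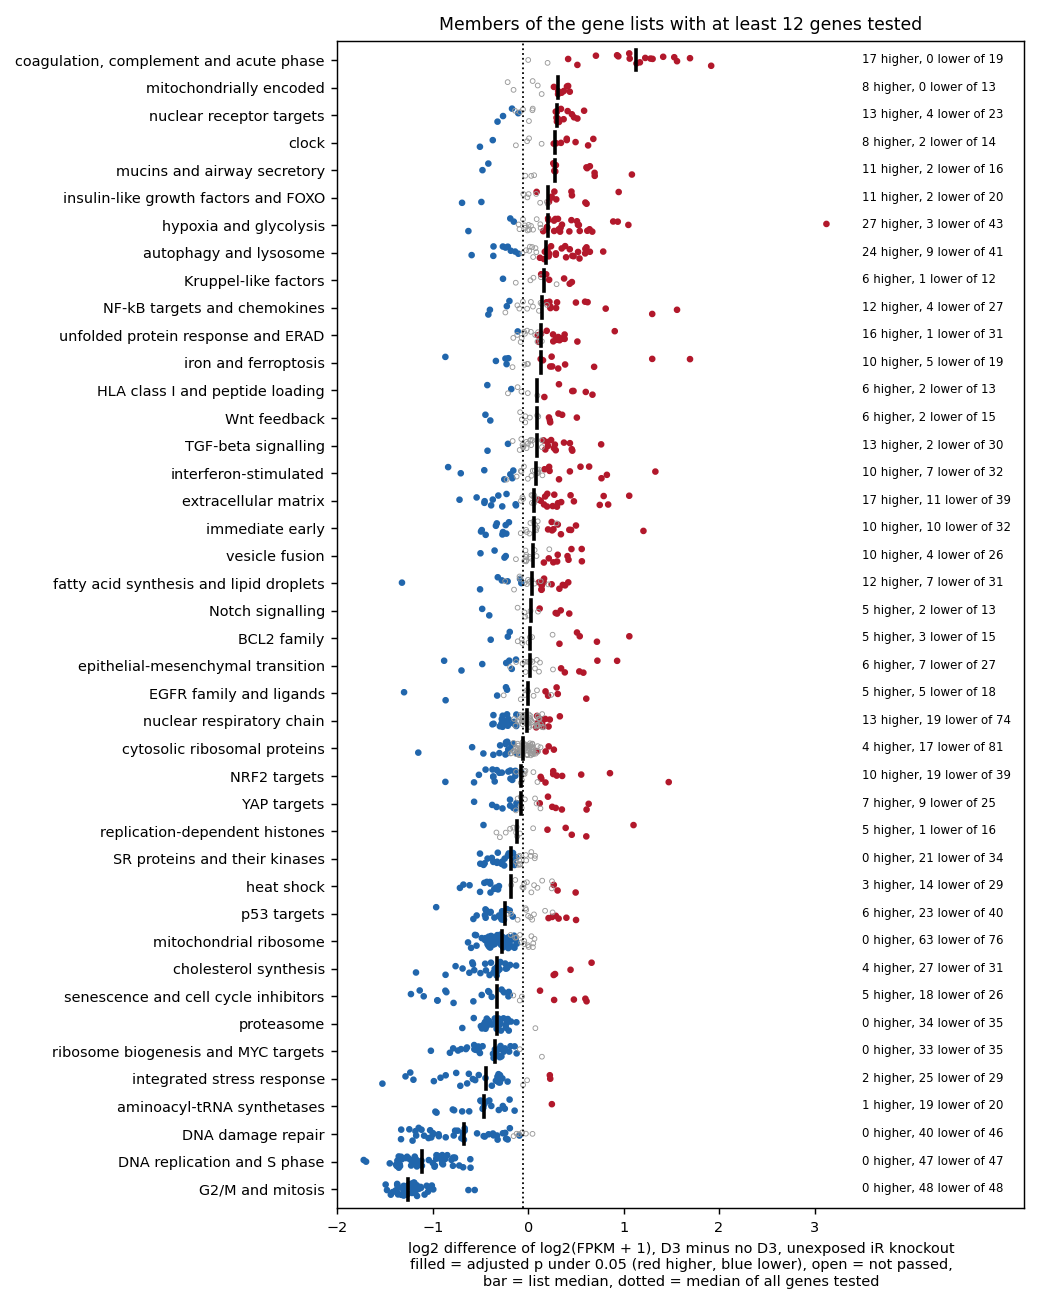
Each point is a gene of a list with at least 12 genes tested, placed by its log2 difference (D3 minus no D3, unexposed iR knockout); filled points passed the threshold, black bars are list medians and the dotted line is the median of all 12,086 genes. All 47 S phase and all 48 mitotic genes lie left of that line, and 17 of 19 coagulation, complement and acute-phase genes are filled on the right.

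Genes of DNA replication fell. All 47 genes on the list of DNA replication and S phase were lower with D3, with log2 differences of -1.73 to -0.61 and a median of -1.12, where 34.5% of all genes were lower. ORC6, a subunit of the complex that marks replication origins, was among the deepest falls. It had 4.43, 4.46 and 4.99 FPKM with D3, against 17.5, 16.6 and 18.7 FPKM without it (log2 difference -1.73, SE 0.07, adjusted p = 3.18e-16). RRM2, the regulatory subunit of ribonucleotide reductase, which supplies DNA building blocks, had 21.9, 20.8 and 21.6 FPKM with D3, against 71.9, 75.6 and 68.3 FPKM without it (log2 difference -1.70, SE 0.06, adjusted p = 4.06e-18). In both genes the highest D3 library lay far below the lowest library without D3. Libraries that do not overlap were a condition of the largest falls. The replication-dependent histones, packaging proteins made in S phase whose transcripts mostly lack a poly(A) tail, did not fall with this list: of 16 tested, 5 were higher and 1 lower, with 2 to 5 higher when 1 library was left out. The list names 53 genes, and the others were under the filter on low values.

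The loading machinery moved as a block. CDC6, which loads the replicative helicase, had 5.97, 5.70 and 5.96 FPKM with D3, against 16.8, 17.1 and 17.0 FPKM without it (log2 difference -1.39, SE 0.04, adjusted p = 8.78e-19). All of the helicase subunits MCM2 to MCM7 fell: the log2 difference was -1.27 for MCM2, -1.001 for MCM3, -1.14 for MCM4, -1.17 for MCM5, -1.18 for MCM6 and -1.35 for MCM7. Its partners GINS2 and CDC45 changed by -1.38 and -1.37. PRIM1, the catalytic primase subunit that starts each new strand, had 5.64, 6.80 and 8.26 FPKM with D3, against 20.3, 20.6 and 20.4 FPKM without it (log2 difference -1.45, SE 0.08, adjusted p = 1.42e-13). PCNA, the sliding clamp of the polymerases, was the most abundant of the list per length at 182, 165 and 180.4 FPKM with D3, against 354, 349 and 318 FPKM without it. The S-phase cyclin genes CCNE1 and CCNE2 fell by less than the list median, with log2 differences of -0.61 and -0.87. E2F1, the transcription factor that drives much of this list, had 7.53, 7.24 and 6.84 FPKM with D3, against 17.7, 17.5 and 19.4 FPKM without it (log2 difference -1.22, SE 0.07, adjusted p = 2.85e-13).

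Promoters of these genes were searched for E2F letters. The windows of CDC6 and GINS2 were picked by hand as examples that hold a match. Both genes fell by more than the list median, but other genes of the list fell further. The windows run from 120 bases before to 30 bases after the RefSeq start in GRCh38.p14, on the gene's strand, with the E2F match in capitals.
CDC6, chr17:40287759-40287908, plus strand: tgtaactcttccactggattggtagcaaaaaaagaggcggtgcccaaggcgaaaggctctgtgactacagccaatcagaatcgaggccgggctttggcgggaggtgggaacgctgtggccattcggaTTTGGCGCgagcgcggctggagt
GINS2, chr16:85688925-85689074, minus strand: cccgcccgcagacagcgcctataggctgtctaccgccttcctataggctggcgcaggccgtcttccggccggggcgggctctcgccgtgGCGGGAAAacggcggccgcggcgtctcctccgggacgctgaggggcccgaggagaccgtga
A search for TTTCCCGC, TTTCGCGC, TTTGCCGC and TTTGGCGC on both strands, in 300 bases around each start, found a match in 20 of the 38 S-phase promoters with a sequence (52.6%) and in 540 of 9705 promoters of tested genes (5.56%). Across all promoters, genes with a match had a median log2 difference of -0.14 and genes without one -0.06. A match is a description of letters and not a measured binding site.

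Genes of mitosis fell likewise. All 48 genes on the list of G2/M and mitosis were lower with D3, with log2 differences of -1.49 to -0.56 and a median of -1.26. CDC20, the activator of the anaphase-promoting complex, had 18.9, 19.8 and 18.9 FPKM with D3, against 49.6, 54.2 and 58.0 FPKM without it (log2 difference -1.44, SE 0.06, adjusted p = 5.91e-16). DLGAP5, a spindle microtubule protein, had 10.2, 10.1 and 11.0 FPKM with D3, against 33.8, 31.3 and 27.8 FPKM without it (log2 difference -1.48, SE 0.07, adjusted p = 1.05e-14). HMMR, a hyaluronan receptor that also binds the spindle, had 8.33, 7.47 and 8.81 FPKM with D3, against 26.5, 28.1 and 20.7 FPKM without it (log2 difference -1.49, SE 0.11, adjusted p = 1.01e-11). None of the D3 values of these 3 genes reached the lowest value without D3, but for genes chosen as largest falls this was a condition.

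The kinases and cyclins of mitotic entry moved with them. CDK1, the kinase that starts mitosis, had a log2 difference of -1.32, and its cyclins CCNB1 and CCNB2 had -1.28 and -1.26. PLK1, a kinase of centrosomes and kinetochores, had 30.1, 31.9 and 28.0 FPKM with D3, against 77.6, 76.1 and 82.3 FPKM without it (log2 difference -1.36, SE 0.05, adjusted p = 3.27e-17). The proliferation marker MKI67 had 16.6, 15.4 and 15.8 FPKM with D3, against 36.8, 37.4 and 40.6 FPKM without it (log2 difference -1.21, SE 0.06, adjusted p = 2.4e-15). TOP2A, the topoisomerase that untangles chromosomes, had 58.3, 57.1 and 61.8 FPKM with D3, against 152, 150.0 and 129 FPKM without it. The smallest changes on the list were those of CDC25B (-0.56), a phosphatase that activates CDK1, and BUB3 (-0.63), a checkpoint protein. Of the activators of the program, FOXM1 changed by -1.27 and MYBL2 by -1.45. MYBL2 had 12.0, 11.7 and 10.8 FPKM with D3, against 31.4, 32.7 and 35.4 FPKM without it.

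The promoters of CDC20, PLK1 and CCNB2 are shown for their CHR element, in capitals, in the same window and build.
CDC20, chr1:43358861-43359010, plus strand: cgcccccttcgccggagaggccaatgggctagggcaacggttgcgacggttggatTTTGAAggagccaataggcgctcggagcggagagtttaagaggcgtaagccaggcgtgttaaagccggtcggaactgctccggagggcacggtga
PLK1, chr16:23678769-23678918, plus strand: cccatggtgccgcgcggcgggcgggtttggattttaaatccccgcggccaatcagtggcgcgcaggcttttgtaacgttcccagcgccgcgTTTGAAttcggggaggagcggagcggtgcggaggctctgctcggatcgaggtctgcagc
CCNB2, chr15:59105026-59105175, plus strand: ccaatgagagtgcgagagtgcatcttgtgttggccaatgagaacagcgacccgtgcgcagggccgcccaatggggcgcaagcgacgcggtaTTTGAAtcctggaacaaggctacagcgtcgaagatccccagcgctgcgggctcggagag
The letters TTTGAA or TTCGAA, searched on both strands, were present in 29 of 40 mitotic promoters (72.5%), against 11.0% of the 9705 promoters, and in 2 of 38 S-phase promoters (5.26%). CCAAT, searched likewise, was present in 32 of the 40 (80.0%) and in 36.9% of all. None of these letter strings contains another. Across the 9705 genes, those with a CHR match had a median log2 difference of -0.12, and those without one -0.06.

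Several of the 15 largest falls were genes on neither cell cycle list. NCAPG, a condensin subunit, had 5.01, 5.14 and 5.12 FPKM with D3, against 19.0, 18.3 and 14.9 FPKM without it (log2 difference -1.59, SE 0.08, adjusted p = 6.1e-15). HJURP, the chaperone that places the centromeric histone CENPA, had 16.4, 16.3 and 16.3 FPKM with D3, against 49.1, 47.7 and 49.9 FPKM without it (log2 difference -1.52, SE 0.03, adjusted p = 4.77e-21). CEP55, which acts at the end of cell division, had 15.2, 14.0 and 15.1 FPKM with D3, against 42.8, 42.7 and 40.8 FPKM without it. PKMYT1, a kinase that restrains CDK1, changed by -1.44, and PBK, a mitotic kinase, by -1.44. PSMC3IP, a partner of recombinases, had 3.13, 1.99 and 2.63 FPKM with D3, against 8.98, 8.45 and 9.72 FPKM without it. TRIML2, a tripartite-motif family member, had 7.49, 6.84 and 7.48 FPKM with D3, against 22.8, 22.7 and 25.1 FPKM without it (log2 difference -1.57, SE 0.08, adjusted p = 8.44e-15).

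Recombination and cross-link repair genes followed. On the list of DNA damage repair, 40 of 46 genes were lower and 0 higher (1 higher under either other scaling), with a median of -0.67. BRCA1, of homologous recombination, had 4.21, 3.88 and 4.03 FPKM with D3, against 12.1, 11.8 and 11.3 FPKM without it (log2 difference -1.33, SE 0.06, adjusted p = 5.81e-15). EXO1, a nuclease that resects DNA ends, had 3.40, 3.23 and 3.56 FPKM with D3, against 10.5, 9.73 and 10.0 FPKM without it (log2 difference -1.33, SE 0.06, adjusted p = 2.46e-16). FANCI, of the Fanconi anaemia pathway, changed by -1.25. Values for the damage kinases were smaller: ATM had a log2 difference of -0.12 (adjusted p = 0.0831), which did not pass, and ATR one of -0.27 (adjusted p = 3.38e-05).

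The inhibitors of the cell cycle did not move together. CDKN1A, which encodes p21, was lower, with 58.2, 56.9 and 58.4 FPKM with D3, against 69.5, 70.3 and 71.5 FPKM without it (log2 difference -0.28, SE 0.05, adjusted p = 2.27e-05). CDKN1B, which encodes p27, was higher, with 16.5, 18.5 and 19.6 FPKM with D3, against 15.1, 15.8 and 13.8 FPKM without it (log2 difference 0.27, SE 0.06, adjusted p = 0.000438). CDKN1C, which encodes p57, rose at a low level, with 1.37, 1.25 and 1.32 FPKM with D3, against 0.558, 0.600 and 0.841 FPKM without it (log2 difference 0.48, SE 0.09, adjusted p = 0.00012). CCND1, the D-type cyclin that responds to growth signals, had a log2 difference of -0.067 and did not pass (adjusted p = 0.152). Of 26 genes on the list of senescence and cell cycle inhibitors, 18 were lower (69.2%) and 5 higher, where 34.5% of all genes were lower. LMNB1 and HMGB2, whose loss is a known mark of senescent cells, fell: LMNB1 had 14.0, 13.4 and 13.6 FPKM with D3, against 31.9, 31.0 and 31.1 FPKM without it, and HMGB2 had 19.1, 18.3 and 19.6 FPKM with D3, against 47.6, 46.6 and 43.6 FPKM without it. GLB1, the lysosomal enzyme behind senescence-associated galactosidase staining, rose (log2 difference 0.60, SE 0.04, adjusted p = 1.53e-11).

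More targets of p53 were lower than higher. Of 40 tested, 23 were lower and 6 higher (19 and 8 under either other scaling), where 34.5% of all genes were lower, with a median of -0.24. DDB2, a damage sensor of nucleotide excision repair, had 18.5, 18.3 and 18.4 FPKM with D3, against 35.6, 35.1 and 40.2 FPKM without it (log2 difference -0.97, SE 0.06, adjusted p = 1.92e-12). GDF15, a secreted stress cytokine, had 31.1, 31.9 and 31.0 FPKM with D3, against 45.5, 46.6 and 49.5 FPKM without it (log2 difference -0.58, SE 0.05, adjusted p = 1.21e-09). MDM2, which degrades p53, changed by -0.26, and BAX, which permeabilizes mitochondria, by -0.39.

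**Figure D2:**
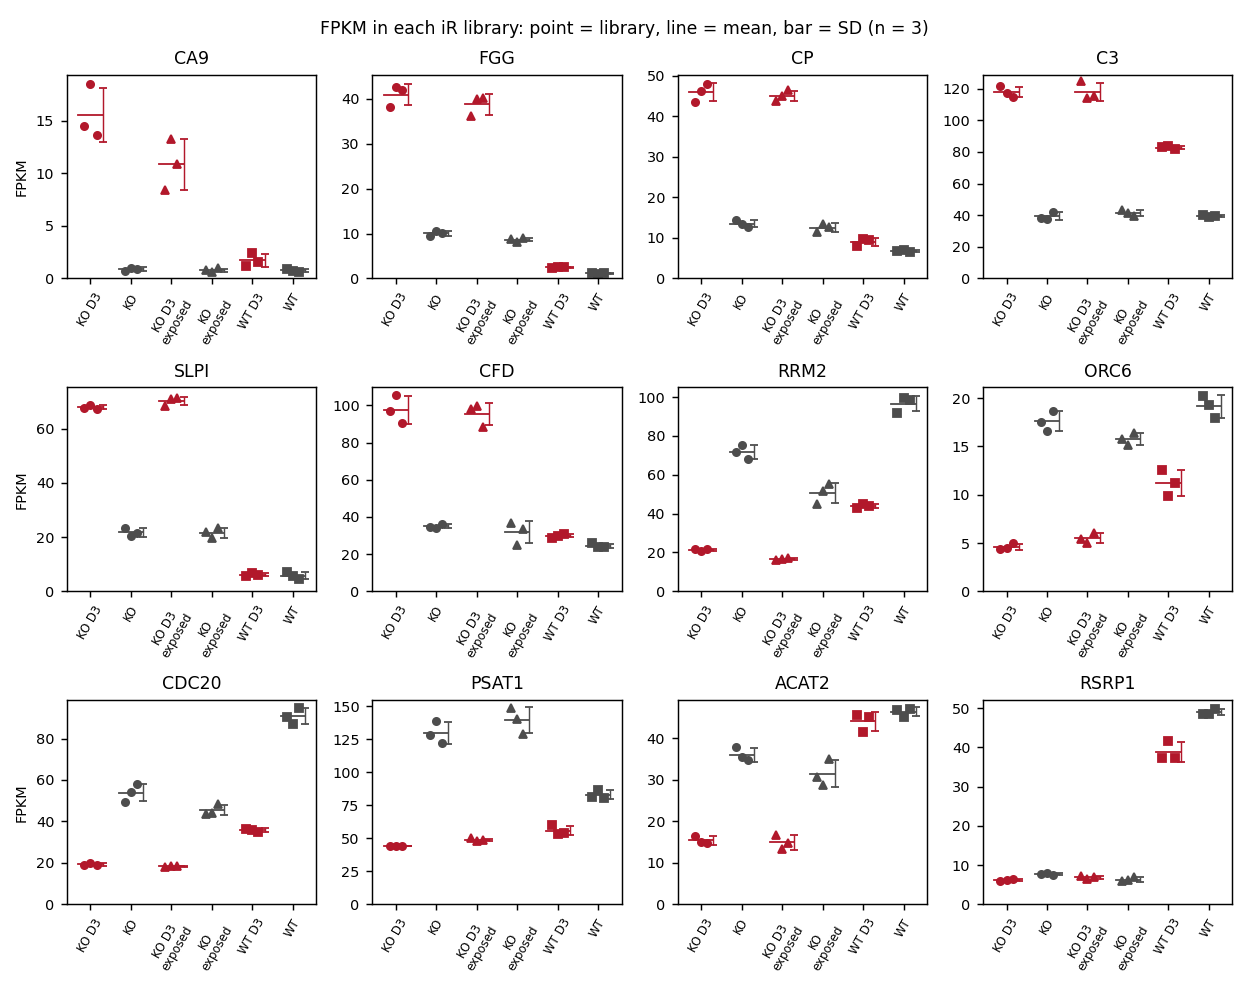
FPKM of 12 genes in the 18 iR libraries used; points are libraries, lines are means and bars are SD (n = 3 per group), with D3 groups in red to the left of their groups without D3 in grey. CA9, FGG, CP, SLPI and CFD are high in the knockout with D3, exposed or not. RRM2, ORC6, CDC20 and PSAT1 are low there, and they also fell with D3 in the wild type.

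Secreted plasma proteins had the highest median of the 47 gene lists. Of 19 genes tested on the list of coagulation, complement and acute phase, 17 were higher and 0 lower, with a median log2 difference of 1.13, where 19.2% of all genes were higher. The members that did not pass were SERPINA3 (0.20) and prothrombin, F2 (-0.0009). The list names 35 genes, and the others were under the filter on low values, which asked for 1 FPKM or more in 3 or more libraries.

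The 3 fibrinogen chains lie side by side on chromosome 4 and all rose. FGG, the gamma chain (chromosome 4, 154,604,136 to 154,612,656), had 38.2, 42.7 and 41.9 FPKM with D3, against 9.55, 10.6 and 10.1 FPKM without it (log2 difference 1.92, SE 0.06, adjusted p = 3.71e-18). FGA, the alpha chain, had 40.8, 42.7 and 41.5 FPKM with D3, against 13.4, 13.9 and 13.9 FPKM without it (log2 difference 1.53, SE 0.05, adjusted p = 1.15e-18). FGB, the beta chain, was the least abundant per length, at 5.15, 5.93 and 5.31 FPKM with D3, against 1.61, 1.45 and 1.81 FPKM without it (log2 difference 1.30, SE 0.07, adjusted p = 2.24e-14). The alpha and gamma chains stood at similar levels per length in the D3 libraries, whereas without D3 the gamma chain was lower than the alpha chain in every library.

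Complement genes rose at several steps of the cascade. C3, the component on which all complement pathways meet, had 121, 118 and 115 FPKM with D3, against 38.4, 37.6 and 42.2 FPKM without it (log2 difference 1.56, SE 0.05, adjusted p = 2.04e-18). The classical proteases C1R and C1S changed by 1.23 and 1.13. CFB, the protease of the alternative pathway, had 10.9, 10.2 and 9.68 FPKM with D3, against 3.30, 3.52 and 4.09 FPKM without it (log2 difference 1.28, SE 0.07, adjusted p = 2.96e-14). CFD, which cleaves CFB, had 97.0, 106 and 90.3 FPKM with D3, against 34.8, 34.0 and 36.2 FPKM without it (log2 difference 1.45, SE 0.11, adjusted p = 1.69e-11). CFI, a protease that inactivates the C3 product, changed by 0.94. C5, which starts the terminal pathway, changed by 1.41.

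Other secreted proteins were among the 15 largest rises. CP, ceruloplasmin, the copper-carrying ferroxidase of plasma, had 43.7, 46.4 and 48.1 FPKM with D3, against 14.5, 13.4 and 12.7 FPKM without it (log2 difference 1.69, SE 0.07, adjusted p = 4.14e-16). LBP, which hands bacterial lipopolysaccharide to its receptor, had 6.01, 6.65 and 6.65 FPKM with D3, against 1.66, 1.39 and 1.09 FPKM without it (log2 difference 1.65, SE 0.09, adjusted p = 1.48e-13). SLPI, a protease inhibitor of airway secretions, had 67.7, 68.7 and 67.4 FPKM with D3, against 23.4, 20.3 and 21.7 FPKM without it (log2 difference 1.60, SE 0.10, adjusted p = 1.38e-12). PRG4, the lubricating proteoglycan lubricin, had 7.03, 7.36 and 7.75 FPKM with D3, against 1.07, 1.30 and 1.32 FPKM without it (log2 difference 1.91, SE 0.06, adjusted p = 1.25e-18). PIP, a secretory gland product, had 6.54, 7.43 and 7.74 FPKM with D3, against 2.34, 1.69 and 2.07 FPKM without it. RNASE4, a secreted ribonuclease whose locus overlaps ANG, had 22.4, 23.6 and 25.3 FPKM with D3, against 7.22, 6.26 and 5.74 FPKM without it (log2 difference 1.75, SE 0.09, adjusted p = 8.48e-15). LCN2, lipocalin 2, which withholds iron from bacteria, had 23.0, 24.4 and 22.2 FPKM with D3, against 9.84, 9.24 and 7.53 FPKM without it (log2 difference 1.30, SE 0.09, adjusted p = 4.97e-12). In each of these genes every D3 library was above every library without D3; LCN2 was not one of the 15 largest rises, for which this was a condition.

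BDKRB2, SLC29A4 and CES1 were also among the 15 largest rises. BDKRB2, the constitutive bradykinin receptor, had 47.0, 49.2 and 44.5 FPKM with D3, against 15.1, 14.9 and 16.2 FPKM without it (log2 difference 1.55, SE 0.06, adjusted p = 3.5e-17). SLC29A4, a monoamine transporter of the plasma membrane, had 13.3, 14.6 and 13.6 FPKM with D3, against 4.03, 4.13 and 4.26 FPKM without it (log2 difference 1.52, SE 0.07, adjusted p = 6.48e-15). CES1, a carboxylesterase abundant in liver, had 7.21, 7.97 and 7.55 FPKM with D3, against 2.00, 2.05 and 2.22 FPKM without it (log2 difference 1.47, SE 0.08, adjusted p = 9.38e-14). FN1, fibronectin, was abundant and had 530.1, 536 and 503 FPKM with D3, against 245, 245 and 263 FPKM without it (log2 difference 1.06, SE 0.04, adjusted p = 1.58e-16).

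CA9 had the largest log2 difference of the 12,086 genes. It lies on chromosome 9 (35,673,928 to 35,681,159) and had 14.5, 18.5 and 13.7 FPKM with D3, against 0.700, 1.03 and 0.933 FPKM without it. Mean FPKM was 17.5 times higher with D3, and the fitted log2 difference was 3.13 (SE 0.14, adjusted p = 9.25e-16). Every D3 library was far above every library without D3, where libraries that do not overlap were a condition of the largest rises. Its promoter window is shown with the letters CACGT, the other strand of the hypoxia core ACGTG, in capitals.
CA9, chr9:35673808-35673957, plus strand: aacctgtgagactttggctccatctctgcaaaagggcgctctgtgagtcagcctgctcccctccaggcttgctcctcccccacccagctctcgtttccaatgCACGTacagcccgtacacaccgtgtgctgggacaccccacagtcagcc
The core is common: it was found in 27.2% of the 9705 promoters and in 15 of 38 promoters of the hypoxia and glycolysis list (39.5%). Across all promoters, genes with the core had a median log2 difference of -0.076 and genes without it -0.059.

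The rest of the hypoxia list moved less and not uniformly. Of 43 genes, 27 were higher (62.8%) and 3 lower, with a median of 0.21, where 19.2% of all genes were higher. NDRG1, a stress-responsive gene, had 18.3, 22.5 and 16.9 FPKM with D3, against 8.72, 9.48 and 10.3 FPKM without it (log2 difference 0.94, SE 0.10, adjusted p = 8.92e-09). ALDOC, an aldolase, had 29.2, 35.4 and 28.7 FPKM with D3, against 13.3, 14.0 and 16.2 FPKM without it (log2 difference 1.05, SE 0.11, adjusted p = 8.16e-09). SLC16A3, the lactate exporter MCT4, had 68.1, 76.5 and 65.5 FPKM with D3, against 35.1, 37.3 and 39.6 FPKM without it (log2 difference 0.89, SE 0.07, adjusted p = 5.75e-11). PGK1, of glycolysis, changed by 0.62. VEGFA and SLC2A1, both classical HIF targets, had log2 differences of 0.05 and -0.035 and did not pass. HIF1A itself had 0.13 (adjusted p = 0.0705), and EPAS1, which encodes HIF2 alpha, was lower (log2 difference -0.63, SE 0.04, adjusted p = 7.66e-14).

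Serine and amino acid genes were lower. On the list of the integrated stress response, the program that ATF4 runs when translation is restrained, 25 of 29 genes were lower and 2 higher, with a median of -0.45. PSAT1, of serine synthesis, had 44.2, 44.4 and 44.2 FPKM with D3, against 128, 139 and 122 FPKM without it (log2 difference -1.53, SE 0.06, adjusted p = 3.88e-17). PHGDH, which starts that pathway, had 2.15, 2.15 and 1.72 FPKM with D3, against 5.77, 5.88 and 6.06 FPKM without it (log2 difference -1.20, SE 0.08, adjusted p = 8.8e-13). MTHFD2, of mitochondrial folate metabolism, had 14.2, 14.4 and 14.6 FPKM with D3, against 34.5, 36.5 and 35.0 FPKM without it (log2 difference -1.24, SE 0.05, adjusted p = 9.23e-16). ATF4 itself had 13.2, 12.9 and 13.7 FPKM with D3, against 25.6, 25.5 and 26.8 FPKM without it (log2 difference -0.92, SE 0.06, adjusted p = 4.01e-13), and its target TRIB3, a pseudokinase, had 26.3, 28.6 and 25.2 FPKM with D3, against 43.7, 46.6 and 46.9 FPKM without it (log2 difference -0.76, SE 0.07, adjusted p = 1.54e-09). STC2, a secreted glycoprotein, changed by -1.29. The 2 members that rose were SLC38A2 (0.23), a glutamine transporter, and ALDH18A1 (0.23), of proline synthesis.

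The enzymes that charge tRNAs fell with them. Of 20 aminoacyl-tRNA synthetases, 19 were lower and 1 higher, with a median of -0.47, where 34.5% of all genes were lower. MARS1, for methionine, had 32.4, 31.5 and 30.6 FPKM with D3, against 61.9, 61.5 and 65.0 FPKM without it (log2 difference -0.97, SE 0.05, adjusted p = 2.4e-15). YARS1, for tyrosine, changed by -0.96 and GARS1, for glycine, by -0.79. The letters TGATGNAA, an element bound by ATF4 with its partners, were found on either strand in 6 of 16 promoters of this list (37.5%), those of TARS1, IARS1, CARS1, MARS1, AARS1 and NARS1, against 1.66% of all promoters. They were in 4 of 23 promoters of the integrated stress response list (17.4%). Across all promoters, genes with a match had a median log2 difference of -0.053 and genes without one -0.063.

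Cholesterol synthesis was lower along most of the pathway. Of 31 genes, 27 were lower and 4 higher, with a median of -0.33, where 34.5% of all genes were lower. ACAT2, which makes acetoacetyl-CoA in the cytosol, had 16.6, 14.9 and 14.6 FPKM with D3, against 37.8, 35.4 and 34.8 FPKM without it (log2 difference -1.18, SE 0.07, adjusted p = 1.35e-13); its end overlaps TCP1 on the other strand, and the strand setting was not stated. HMGCS1, the synthase of the next step, had 18.8, 18.7 and 20.4 FPKM with D3, against 33.5, 32.2 and 29.6 FPKM without it (log2 difference -0.69, SE 0.06, adjusted p = 1.54e-09). FDPS, of isoprenoid synthesis, had 49.6, 46.7 and 48.8 FPKM with D3, against 88.7, 89.8 and 88.6 FPKM without it (log2 difference -0.87, SE 0.04, adjusted p = 1.78e-14). The 4 that rose were the exporters ABCA1 (0.44) and ABCG1 (0.66), MYLIP (0.28), a ubiquitin ligase, and SREBF2 (0.27), the factor that drives the pathway. ABCA1, ABCG1 and MYLIP are known targets of the liver X receptors.

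Fatty acid genes did not follow as a block. Of 31, 12 were higher (38.7%) and 7 lower (22.6%), where 19.2% of all genes were higher and 34.5% lower. The lower count was 4 under either other scaling. FABP5, a fatty acid carrier, had 23.8, 23.8 and 23.8 FPKM with D3, against 62.6, 61.5 and 59.2 FPKM without it (log2 difference -1.32, SE 0.06, adjusted p = 1.88e-15). FASN, fatty acid synthase, had 50.9, 50.9 and 48.5 FPKM with D3, against 70.4, 68.1 and 76.4 FPKM without it (log2 difference -0.51, SE 0.06, adjusted p = 1.84e-07). SCD, the desaturase, was higher (log2 difference 0.16, SE 0.03, adjusted p = 9.93e-05).

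Most lists of genes for making and removing proteins were lower, and cytosolic ribosomal proteins were near the median of all genes. Of 35 genes of ribosome biogenesis and MYC targets, 33 were lower and 0 higher, with a median of -0.35. NOP56, a core protein of small nucleolar particles, had 40.2, 45.7 and 45.4 FPKM with D3, against 90.4, 87.0 and 91.6 FPKM without it (log2 difference -1.02, SE 0.05, adjusted p = 1.84e-14), and MYC changed by -0.33. Of 35 proteasome genes, 34 were lower and 0 higher (1 higher under either other scaling), with a median of -0.33. PSMC3, an ATPase of its cap, had 40.2, 40.3 and 38.2 FPKM with D3, against 62.5, 64.1 and 67.0 FPKM without it (log2 difference -0.69, SE 0.06, adjusted p = 1.73e-09). Of 76 mitochondrial ribosome genes, 63 were lower. Cytosolic ribosomal proteins had a median of -0.05, with 17 of 81 lower and 4 higher, and this direction turned with the scaling: 18 were higher and 8 lower with median-of-ratios scaling. Of 29 heat shock genes, 14 were lower (48.3%) and 3 higher, where 34.5% of all genes were lower. HSP90AA1, the inducible HSP90, had 267, 259.7 and 274 FPKM with D3, against 473, 451 and 398 FPKM without it (log2 difference -0.72, SE 0.07, adjusted p = 1.16e-08).

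Of lysosomal and endoplasmic reticulum genes, more were higher than lower. Of 41 genes of autophagy and the lysosome, 24 were higher and 9 lower, with a median of 0.19. GABARAPL1, of the ATG8 family that coats autophagosomes, had 27.7, 27.6 and 27.5 FPKM with D3, against 17.6, 16.8 and 18.9 FPKM without it (log2 difference 0.61, SE 0.06, adjusted p = 7.96e-09). PSAP, the precursor of the saposins, had 1404, 1434 and 1364 FPKM with D3, against 860.0, 890.5 and 936 FPKM without it (log2 difference 0.65, SE 0.04, adjusted p = 5.66e-13). On the list of the unfolded protein response, 16 of 31 were higher (51.6%) and 1 lower, where 19.2% of all genes were higher. With 1 library left out, 12 to 14 were higher. XBP1, the transcription factor that enlarges the secretory apparatus, had 55.6, 55.5 and 54.1 FPKM with D3, against 29.5, 29.8 and 27.4 FPKM without it (log2 difference 0.91, SE 0.09, adjusted p = 2.39e-09), while DDIT3, the death-linked factor CHOP, fell (log2 difference -0.64, SE 0.11, adjusted p = 3.73e-05). HSPA5, the chaperone BiP, changed by 0.29.

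Airway and cell-surface genes rose in part. Of 16 mucin and airway secretory genes, 11 were higher (68.8%) and 2 lower, where 19.2% of all genes were higher. MUC5B, a gel-forming mucin, had 48.9, 53.3 and 54.2 FPKM with D3, against 32.1, 31.3 and 35.5 FPKM without it (log2 difference 0.65, SE 0.10, adjusted p = 9.04e-06). SPDEF, a transcription factor of goblet cells, had 3.48, 3.14 and 2.97 FPKM with D3, against 0.713, 1.09 and 1.15 FPKM without it (log2 difference 1.09, SE 0.09, adjusted p = 7.94e-11). AGR2, a disulfide isomerase needed for mucins, changed by 0.69. HLA-E, a class I molecule read by natural killer cells, had 40.4, 43.8 and 40.3 FPKM with D3, against 26.0, 27.5 and 27.5 FPKM without it (log2 difference 0.60, SE 0.05, adjusted p = 3.07e-11). HLA-B and HLA-C changed by 0.67 and 0.47, and fragments of these similar genes may be shared. IFITM1, an interferon-induced membrane protein, rose (log2 difference 1.33, SE 0.14, adjusted p = 1.23e-08), and ISG15, a ubiquitin-like modifier, fell (log2 difference -0.84, SE 0.10, adjusted p = 1.07e-07).

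Death regulators and growth factors changed by gene. BMF, a BH3-only protein that promotes apoptosis, had 3.00, 3.02 and 3.10 FPKM with D3, against 1.06, 0.856 and 0.904 FPKM without it (log2 difference 1.06, SE 0.06, adjusted p = 5.11e-14). BCL2L11, which encodes BIM, had 15.9, 15.8 and 16.3 FPKM with D3, against 9.16, 9.72 and 9.13 FPKM without it (log2 difference 0.72, SE 0.05, adjusted p = 9.43e-13). BCL2L1, which encodes the protective BCL-XL, rose too (0.33). AREG and EREG, ligands of the EGF receptor, fell: AREG had 3.06, 3.46 and 2.32 FPKM with D3, against 9.06, 8.36 and 8.57 FPKM without it (log2 difference -1.30, SE 0.10, adjusted p = 6.14e-11), and EREG had 1.61, 1.74 and 2.01 FPKM with D3, against 4.15, 4.38 and 3.72 FPKM without it (log2 difference -0.87, SE 0.08, adjusted p = 7.98e-10). LRIG1, an inhibitor of that receptor, rose (log2 difference 0.61, SE 0.05, adjusted p = 3.34e-10).

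Mitochondrially encoded genes were higher under some scalings. Of 13, 8 were higher and 0 lower (10 with median-of-ratios scaling and 2 with quantile normalization), with a median of 0.31. ND5, of complex I, had 2563, 2581 and 2653 FPKM with D3, against 1923, 1918 and 1925 FPKM without it (log2 difference 0.43, SE 0.07, adjusted p = 4.73e-06). COX1, of complex IV, had 21033, 21390.3 and 22094 FPKM with D3, against 16154, 15783 and 16359 FPKM without it (log2 difference 0.42, SE 0.06, adjusted p = 1.1e-06), and its log2 difference was 0 under quantile normalization, which fixes the values of the top ranks. Nuclear genes of the respiratory chain had a median of -0.01. Of 74, 13 were higher (17.6%) and 19 lower (25.7%), beside 19.2% and 34.5% of all genes. The balance turned to 26 higher and 9 lower with median-of-ratios scaling.

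Markers of the line and of other cells were read beside these results. KRT8 and KRT18, keratins of simple epithelia, stood at 1142, 1147 and 1050.5 FPKM and 766, 758 and 744 FPKM with D3, against 1186, 1206 and 1259 FPKM and 842, 837 and 879 FPKM without it. EPCAM was low at 1.20, 0.995 and 1.51 FPKM with D3, against 0.962, 1.29 and 1.60 FPKM without it, and KRT19 was near 0 in all 6 libraries. CDH1, E-cadherin, rose (log2 difference 0.53, SE 0.04, adjusted p = 9.33e-11), and KRT7 fell (log2 difference -0.70, SE 0.06, adjusted p = 1.4e-10). The summed FPKM of the 8 leukocyte markers matched, of 13 listed, was 44.7 to 45.2 with D3, against 41.6 to 47.0 without it; CD68 and CD14 carried nearly all of it. The fibroblast sum was 8.40 to 9.99 with D3, against 7.03 to 7.62 without it, with 9 of 10 markers under 1 FPKM in all libraries. The endothelial sum was 1.27 to 1.32 with D3, against 0.486 to 0.629 without it, from CDH5 mostly (log2 difference 0.57, SE 0.06, adjusted p = 8.51e-09). As in any bulk sample, fewer cells in a state and less RNA per cell cannot be told apart.

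**Figure D3:**
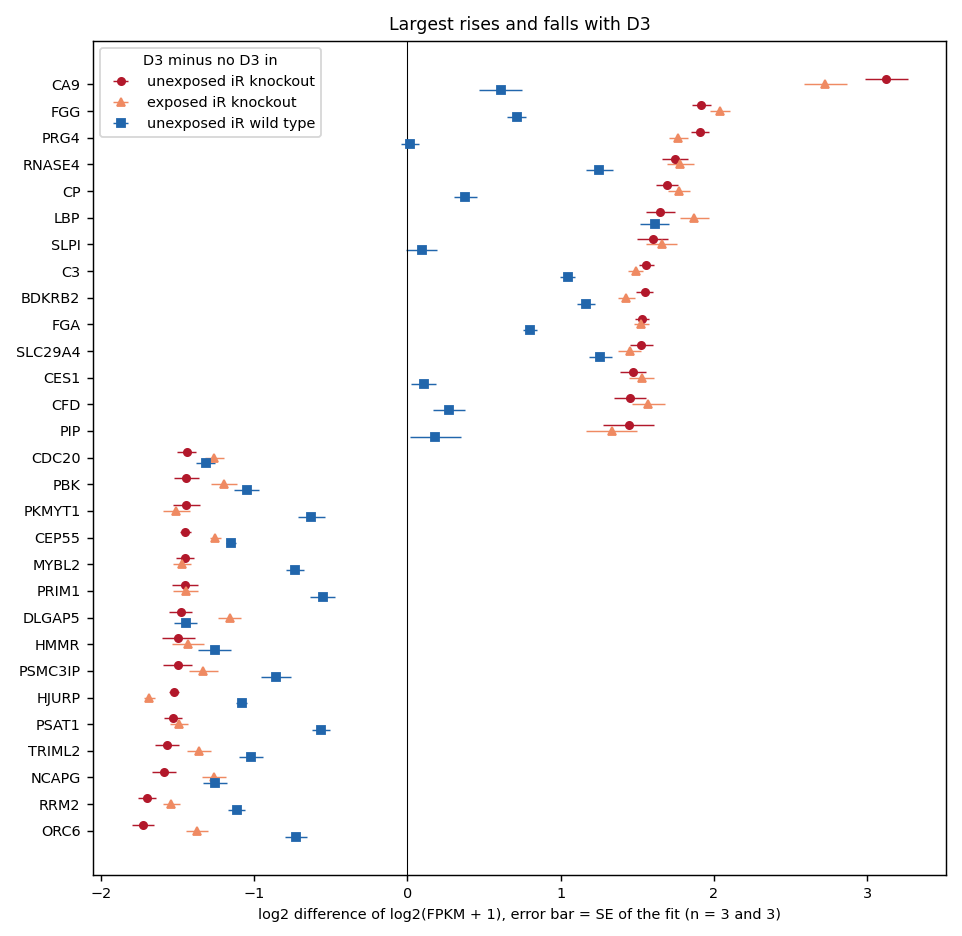
Log2 difference with D3 for 29 of the 30 largest rises and falls of the unexposed knockout, in that comparison, in the exposed knockout and in the unexposed wild type; error bars are SE of the fit. All 29 triangles lie on the same side of 0 as the circles, and the wild-type squares of PRG4, SLPI, CES1 and PIP lie near 0.

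The same contrast in exposed knockout libraries, which are other libraries, gave similar values across genes, but not for every list. There 2192 genes were higher (18.1%) and 4127 lower (34.1%) with D3, and with median-of-ratios scaling 3179 higher and 2908 lower. Of the genes that rose without exposure, 1572 rose with it, which is 67.9% of the unexposed list and 71.7% of the exposed list. Of the falls, 3104 were shared (74.4% and 75.2%), and 41 rises and 24 falls were called the opposite way. Across 12,086 genes, which are not independent replicates, log2 differences of the 2 comparisons correlated with a Pearson r of 0.87. All 15 largest rises and all 15 largest falls passed there in the same direction. Cytosolic ribosomal proteins turned from 4 higher and 17 lower of 81 without exposure to 35 higher (43.2%) and 6 lower (7.41%) with it. Nuclear genes of the respiratory chain turned from 13 higher and 19 lower of 74 to 40 higher (54.1%) and 5 lower (6.76%). The test of the difference itself, D3 by exposure, called 500 genes (4.14%), 210 positive (1.74%) and 290 negative (2.4%). That count is set in part by single libraries: it was 910 without iR_KOA_NE replicate 3, and 245 to 319 without iR_KOA_NE replicate 1 or 2, iR_KOA_D3_NE replicate 1 or 2, or iR_KOA_D3_EX replicate 1 or 3. Among the 30 largest rises and falls the test called ORC6 (0.35, exposed minus unexposed) and CEP55 (0.20). It called 0 of the 81 cytosolic ribosomal protein genes and 4 of the 74 respiratory chain genes, all positive. BMF was also called: its log2 difference was 0.29 in the exposed knockout and 1.06 in the unexposed knockout, but this difference did not pass with a pseudocount of 0.1 (adjusted p = 0.184) or with voom on the recovered reads (adjusted p = 0.724).

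In the unexposed wild type, mitotic genes fell by a size near that of the knockout, S-phase and secreted genes changed less, and cholesterol genes were mostly higher. With D3, 2697 genes were higher (22.3%) and 3183 lower (26.3%) in wild-type libraries, and with median-of-ratios scaling 3126 were higher and 2627 lower. Of the rises in the knockout, 1563 were shared (67.5% of the knockout list and 58.0% of the wild-type list). Of the falls, 2579 were shared (61.8% and 81.0%), and 45 rises and 162 falls were called the opposite way. The log2 differences of these 2 comparisons correlated across genes with a Pearson r of 0.751. The D3-by-genotype test, knockout minus wild type, called 2119 genes (17.5%), 627 positive (5.19%) and 1492 negative (12.3%). That split was nearer even with the other scalings: 965 positive and 1051 negative with median-of-ratios scaling, and 967 and 1085 with quantile normalization. It called 13 of the 15 largest rises and 12 of the 15 largest falls. These genes were picked by their knockout difference, which is part of this test, so the choice favours a larger change in the knockout.

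**Figure D4:**
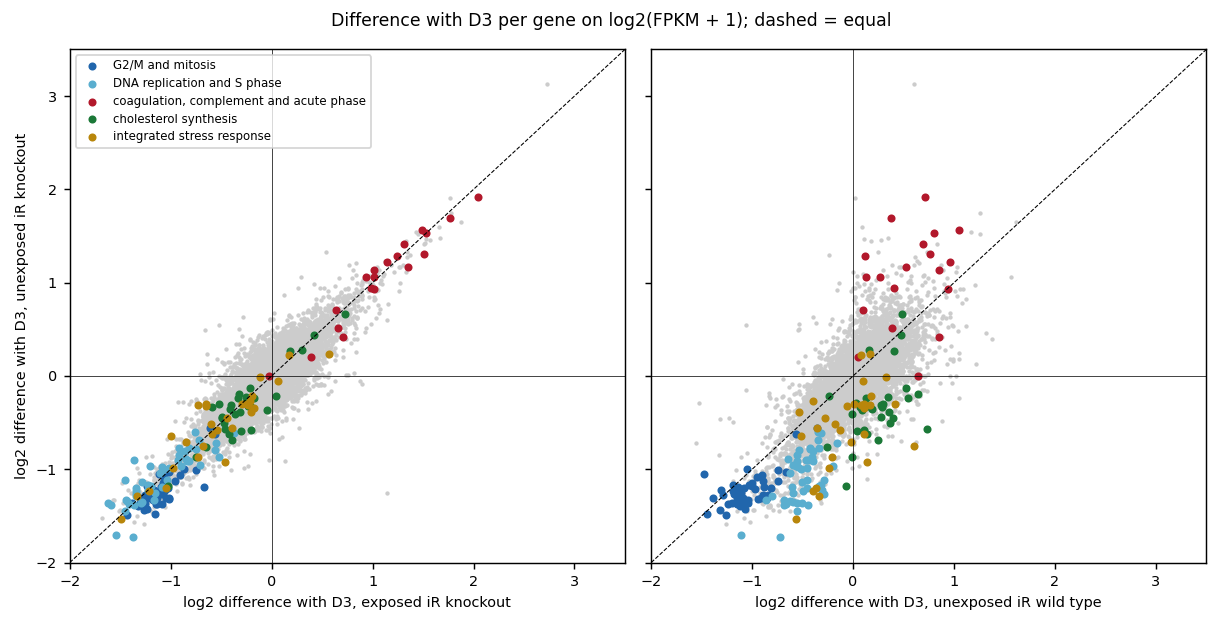
Each point is a gene, coloured by list or grey, with its log2 difference with D3 in the unexposed iR knockout on the vertical axis and in the exposed knockout (left) or the unexposed wild type (right) on the horizontal axis. On the right, mitotic genes lie near the dashed line of equality, S-phase genes lie below it, and cholesterol genes lie below 0 on the vertical axis with most of them above 0 on the horizontal axis.

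By group, the D3-by-genotype test called more genes of DNA synthesis than of mitosis, and both groups fell further in the knockout. It called 45 of 47 S-phase genes, all negative: their median log2 difference was -1.12 in the knockout and -0.50 in the wild type. It called 18 of 48 mitotic genes, 17 of them negative, with medians of -1.26 in the knockout and -1.08 in the wild type. Of all genes tested, 12.3% were called negative. The median of the D3-by-genotype difference was -0.57 for S-phase genes, -0.17 for mitotic genes and -0.05 for all genes. CDC20, for example, changed by -1.44 in the knockout and -1.32 in the wild type, and this difference did not pass (adjusted p = 0.391). MCM2 changed by -1.27 in the knockout and -0.29 in the wild type (adjusted p of the difference = 1.02e-08).

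Secreted genes rose more in the knockout. The test was positive for 14 of 19 coagulation, complement and acute-phase genes and negative for 1, where it was positive for 5.19% of all genes. Their medians were 1.13 in the knockout and 0.65 in the wild type. FGG in the wild type had 2.34, 2.63 and 2.56 FPKM with D3, against 1.18, 1.06 and 1.18 FPKM without it, and its D3-by-genotype difference was 1.20 (adjusted p = 4.04e-10). At such low values the pseudocount of 1 understates the wild-type change more than the knockout change, which enlarges this difference. Over all genes, positive calls numbered 534 with a pseudocount of 0.1 and 506 with voom on the recovered reads, against 627. SLPI in the wild type had 5.76, 6.92 and 5.91 FPKM with D3, against 7.14, 5.73 and 4.58 FPKM without it (1.51, adjusted p = 3.31e-08). LBP was an exception, with a log2 difference of 1.65 in the knockout and 1.61 in the wild type (adjusted p of the difference = 0.901). CA9 in the wild type had 1.22, 2.42 and 1.53 FPKM with D3, against 0.912, 0.743 and 0.630 FPKM without it, and its D3-by-genotype difference was 2.52 (SE 0.20, adjusted p = 7.52e-10).

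Sterol genes differed in direction between knockout and wild type. Cholesterol genes in the wild type were higher in 20 of 31 cases and lower in 2, with a median of 0.24, and the test was negative for 26 of 31. Of all genes tested, 22.3% were higher and 26.3% lower in the wild type, and the test was negative for 12.3%. HMGCS1 changed by -0.69 in the knockout and 0.24 in the wild type. On the list of the integrated stress response the wild type had 6 higher (20.7%) and 12 lower (41.4%) of 29, with a median of -0.02. Its share of higher genes was thus near that of all genes, and the test was negative for 18. TRIB3 changed by -0.76 in the knockout and 0.60 in the wild type, and ATF4 by -0.92 and 0.14. Ribosome biogenesis and the proteasome moved alike in size, with medians of -0.35 and -0.33 in the knockout and -0.39 and -0.28 in the wild type. The test called 3 genes of each list, where it called 17.5% of all genes.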

How the data were processed

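The authors deposited 1 table of FPKM values for 26,801 genes, and fastp, HISAT2 and HTSeq with the build GRCh38 are listed, without versions, per the submitters' processing notes. Per the labels' protocols, polyadenylated RNA was captured with oligo(dT) after DNase digestion, and random primers made the cDNA. The sources used here do not state the annotation, gene lengths or strand setting; overlapping genes cannot be told apart and close copies may share fragments. FPKM is blind to composition: a gain in abundant genes lowers all others. Columns were matched to samples by name, and 6 further columns matched none and were not used. Every gene's FPKM values came out as whole reads (tolerance 0.01), with totals of 34,620,445 to 38,939,339 per library.

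Values were tested as log2(FPKM + 1) with limma 3.58.1 (R 4.3.3, mean-variance trend) in 1 fit of 10 groups with 20 residual degrees of freedom, over the 12,086 genes that reached 1 FPKM in 3 or more libraries. P-values are two-sided and adjusted by Benjamini-Hochberg within each of 5 comparisons. The fit was also run on simulated data in which few genes changed. That run cannot vouch for the fit under a change as broad as the one found here.

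Named genes are RSRP1, the 15 largest rises and 15 largest falls (threshold passed, at least 2 FPKM in 1 group, libraries not overlapping), up to 4 members of each list with 3 or more past the threshold, and 5 per direction for each interaction; some genes these rules name are not reported here. Regulators and rate-limiting enzymes of a list, and other list members, were added after their values were seen. The comparison and the 47 lists were chosen with earlier results of these data known. Promoters are RefSeq sequences of GRCh38.p14, matched by symbol for 9705 tested genes, and 25,764 gene identifiers matched the RefSeq table. A planned test on counts was replaced by limma's voom on the recovered reads, chosen after seeing the data. Other alternatives were a pseudocount of 0.1, no filter, 2 scalings, only the groups compared, a replicate block and each library left out.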

Additional observations from a re-analysis of the deposited data

Results flagged for a closer look

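The effect of D3 differed between the unexposed knockout and the unexposed wild type, by the interaction term of the limma fit, in 2119 of 12,086 genes (17.5%). Values below are the log2 difference with D3 in the knockout minus that in the wild type, on log2(FPKM + 1). Among the largest rises of the knockout, the difference was 2.52 for CA9, 1.89 for PRG4, 1.51 for SLPI, 1.37 for CES1 and 1.32 for CP. It was 1.26 for PIP, 1.20 for FGG, 1.18 for CFD, 0.73 for FGA, 0.51 for C3, 0.49 for RNASE4 and 0.38 for BDKRB2. LCN2 had 1.53: its log2 difference was 1.30 in the knockout and -0.23 in the wild type, so the directions were opposite. The CES1 difference was 0.66 and did not pass (adjusted p = 0.526) when the recovered reads were tested with voom.

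Of the 15 largest falls, 12 were called, all with a deeper fall in the knockout. The largest rises and falls were picked by their knockout difference, which this test contains. The choice itself therefore favours a larger change in the knockout. The difference was -0.999 for ORC6, -0.96 for PSAT1, -0.90 for PRIM1, -0.82 for PKMYT1, -0.71 for MYBL2 and -0.64 for PSMC3IP. It was -0.59 for RRM2, -0.55 for TRIML2, -0.44 for HJURP, -0.39 for PBK, -0.33 for NCAPG and -0.30 for CEP55.

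Of the 5 most negative differences, 4 are given here, and they belonged to genes that were lower with D3 in the knockout and higher with D3 in the wild type. They were -1.36 for LOC105371592, a locus with no further annotation used here, -1.36 for TRIB3, -1.34 for OLFML2A, an olfactomedin family member, and -1.29 for NR4A1, an immediate early nuclear receptor. NR4A1 had 2.65, 2.71 and 2.59 FPKM with D3, against 3.16, 3.37 and 3.36 FPKM without it in the knockout. In the wild type NR4A1 had 3.04, 3.27 and 2.90 FPKM with D3, against 1.08, 0.901 and 0.912 FPKM without it.

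Between the exposed and the unexposed knockout, the effect of D3 differed by the interaction test in 500 genes (4.14%), a count that ran from 245 to 910 when 1 library was left out. Here values are the log2 difference with D3 in the exposed minus that in the unexposed knockout. They were negative for SOCS3 (-1.15), a feedback inhibitor of cytokine receptors, JUN (-0.82), RND1 (-0.78), a small GTPase, BMF (-0.77) and the chemokine gene CXCL1 (-0.77). SOCS3 had 5.89, 6.61 and 6.43 FPKM with D3, against 4.36, 3.78 and 4.44 FPKM without it in the unexposed knockout. In the exposed knockout SOCS3 had 2.18, 2.95 and 2.19 FPKM with D3, against 3.96, 4.35 and 4.95 FPKM without it, so the direction was opposite. Positive values were found for PDK4 (0.78), a kinase that restrains pyruvate oxidation, CHORDC1 (0.75), a cochaperone, DYNLT2B (0.75), a dynein light chain, LOC105374333 (0.72) and OSGIN1 (0.71). The test also passed for RSRP1 (0.39), ORC6 (0.35) and CEP55 (0.20). The calls of BMF and LOC105374333 were lost under 2 and 11 of the alternatives.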

How the results depend on the processing

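The D3 comparison of the unexposed knockout kept its count within 1.5 times under every alternative run: 5800 to 6354 genes with 1 library left out, against 6485. All 30 of the largest rises and falls kept their calls. The D3-by-genotype test gave 965 positive calls with median-of-ratios scaling and 967 with quantile normalization, against 627. D3 by exposure was the least stable: with only the groups compared it called 158 genes (67 positive and 91 negative), without the filter 135 positive, and with 1 library left out 245 to 910 in all, 103 to 424 positive and 139 to 486 negative, against 500, 210 and 290. The most came without the third library of iR_KOA_NE and the fewest without the second; the cause was not tested. Fits that left out a library assume that the remaining ones vary like the other groups. Same-numbered libraries of the 2 knockout groups did not deviate together (correlations of -0.0565, -0.0777 and -0.325), and no library correlated best with its own number. These few values, from deviations within groups of 3, cannot tell whether same-numbered libraries were handled together. A replicate block gave 2325 genes higher and 4159 lower. Voom on the recovered reads, added after seeing the data, gave 2353 higher and 4175 lower; the planned quasi-likelihood count test was not run. Of the genes named by rule, 176 kept their D3 call under every alternative run; those of H3C10, H1-2, HERPUD1, SLC39A4, MT1F, KLF4, ALDH1A1, COX1, COX2 and COX3 were lost under 1 or more. Genes below 1 FPKM rest on few fragments.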

Other observations

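Genes of the circadian clock and of nuclear receptors were also higher in part with D3 in the unexposed knockout. Of 14 clock genes tested, 8 were higher (57.1%) and 2 lower (14.3%), where 19.2% of all genes were higher and 34.5% lower. DBP, an output factor of the clock, had 10.2, 10.4 and 10.2 FPKM with D3, against 6.40, 5.64 and 6.08 FPKM without it (log2 difference 0.68, SE 0.08, adjusted p = 9.65e-08). NR1D1, a repressor of the clock, had 7.55, 7.28 and 6.75 FPKM with D3, against 4.89, 4.54 and 5.01 FPKM without it (log2 difference 0.50, SE 0.07, adjusted p = 1.8e-06), and CRY1, a cryptochrome, fell (log2 difference -0.51, SE 0.06, adjusted p = 3.08e-08). Of 23 nuclear receptor genes and targets, 13 were higher (56.5%) and 4 lower (17.4%), beside the same shares of all genes. CYP24A1, the hydroxylase that breaks down active vitamin D, had 174, 184 and 183 FPKM with D3, against 129, 132 and 127 FPKM without it (log2 difference 0.48, SE 0.04, adjusted p = 1.04e-10). In the wild type CYP24A1 had 97.4, 97.9 and 93.8 FPKM with D3, against 100.3, 109 and 99.3 FPKM without it, and the D3-by-genotype difference was 0.57 (adjusted p = 2.87e-08). VDR, the vitamin D receptor, had 0.162, 0.199 and 0.221 FPKM with D3, against 0.409, 0.488 and 0.406 FPKM without it in the knockout (log2 difference -0.26, SE 0.07, adjusted p = 0.00335). All of these knockout values are below 1 FPKM and rest on few fragments. VDR passed the filter on low values only through libraries outside this comparison. In the wild type VDR had 2.39, 2.13 and 2.13 FPKM with D3, against 2.51, 2.31 and 2.03 FPKM without it.

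Growth factor and signalling genes changed by gene. IGFBP3, a binding protein of insulin-like growth factors, had 476, 513 and 483 FPKM with D3, against 313, 325 and 325 FPKM without it (log2 difference 0.61, SE 0.06, adjusted p = 3.8e-09), while in the wild type its log2 difference was -0.21. IGFBP6 fell (log2 difference -0.69, SE 0.08, adjusted p = 2.92e-08). JUNB, an AP-1 subunit, had 18.4, 20.8 and 17.0 FPKM with D3, against 7.38, 8.18 and 7.02 FPKM without it (log2 difference 1.21, SE 0.11, adjusted p = 1.68e-09). BAMBI, a decoy receptor of the TGF-beta family, had 47.8, 48.0 and 48.0 FPKM with D3, against 27.8, 27.8 and 27.9 FPKM without it (log2 difference 0.76, SE 0.05, adjusted p = 8.02e-13). HMOX1, heme oxygenase, fell (log2 difference -0.87, SE 0.07, adjusted p = 9.27e-11), and ABCC3, an exporter of conjugated drugs, rose (log2 difference 0.86, SE 0.04, adjusted p = 2.4e-15).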
